A study of Homo sapiens with 6 samples.

Results

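The genes described here are 6 matrix metalloproteinases (MMP2, MMP7, MMP11, MMP14, MMP15 and MMP17), 3 tissue inhibitors of metalloproteinases (TIMP1, TIMP2 and TIMP3) and PLAU, which encodes the urokinase plasminogen activator. They were taken by symbol, as proteases and inhibitors known in carcinoma cells as targets of the PEA3 transcription factors, and are 10 of the 26364 genes in the count table. The cells are Ishikawa, an endometrioid adenocarcinoma line that responds to estrogen. The parental line, with ETV4 intact, was compared with 2 ETV4 knockout lines (clone 1 and clone 2), each a single clone. Every line was kept in medium depleted of hormone and gave 1 poly(A) RNA-seq library in the vehicle (0.1% DMSO) and 1 in 10 nM 17β-estradiol (E2), so a clone group has n = 2 and a parental group n = 1. The protocol gives the induction as 8 h and the sample characteristics as 1 h, and how the knockout was made is not given in the sources used here.

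Matrix metalloproteinases are zinc endopeptidases that cleave collagens, laminins and other matrix and cell-surface proteins and are made as latent proenzymes. MMP2, MMP7 and MMP11 are secreted, MMP14 and MMP15 cross the plasma membrane, and MMP17 is held at the cell surface by a glycolipid anchor. TIMPs block the active site, TIMP2 also helps MMP14 to activate the MMP2 proenzyme, and PLAU converts plasminogen to plasmin, a serine protease that can activate other proenzymes. PEA3 factors (ETV1, ETV4 and ETV5) bind a GGAA core and are known to act on protease promoters together with AP-1, the dimers of FOS and JUN proteins. In the endometrium these enzymes are best known for the breakdown and rebuilding of tissue over the menstrual cycle.

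The promoters of 3 genes are shown because they span what was found in the group: MMP7 holds both an AP-1 and a PEA3 motif, TIMP1 holds a PEA3 motif, and MMP11 holds neither. Each is the stretch of 250 bases before the transcription start in the RefSeq promoter table (GRCh38.p14, another build than the hg19 named for the counts), written 5′ to 3′ on the strand of the gene. Capitals mark AP-1 (TGANTCA) and PEA3 (AGGAAG) matches on either strand, and no AP-1 match overlaps a PEA3 match. MMP7 lies at chr11:102530748-102530997 on the minus strand, TIMP1 at chrX:47582186-47582435 on the plus strand and MMP11 at chr22:23772599-23772848 on the plus strand.
MMP7: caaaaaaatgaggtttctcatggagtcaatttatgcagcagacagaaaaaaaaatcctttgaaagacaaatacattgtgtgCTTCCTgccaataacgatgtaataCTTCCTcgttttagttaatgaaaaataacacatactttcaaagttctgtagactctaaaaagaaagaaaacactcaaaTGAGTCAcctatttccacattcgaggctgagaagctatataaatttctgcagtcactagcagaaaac
TIMP1: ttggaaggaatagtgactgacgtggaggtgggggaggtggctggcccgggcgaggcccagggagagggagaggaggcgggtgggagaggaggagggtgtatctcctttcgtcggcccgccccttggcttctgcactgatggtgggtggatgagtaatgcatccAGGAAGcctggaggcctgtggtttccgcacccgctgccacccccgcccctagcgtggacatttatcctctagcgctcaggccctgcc
MMP11: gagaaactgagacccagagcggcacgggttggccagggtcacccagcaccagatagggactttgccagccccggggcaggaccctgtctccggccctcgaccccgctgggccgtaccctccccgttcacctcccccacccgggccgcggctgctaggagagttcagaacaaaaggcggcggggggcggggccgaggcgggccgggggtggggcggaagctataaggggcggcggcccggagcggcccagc

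The MMP7 stretch held 1 AP-1 match, beginning at -67 from the start, and 2 PEA3 matches. TIMP1 held 1 PEA3 match, at -87, and PLAU held 1 before the second of its 2 listed starts, at -221. Neither motif was found in these stretches of MMP11, MMP14, MMP15 or TIMP3. Of 35116 promoter stretches of this length, 6.57% held the AP-1 motif, 28.7% the PEA3 motif and 92.7% the GGAA core, which lies inside the PEA3 motif. Promoters were matched for 7 of the 10 genes, and those of MMP2, MMP17 and TIMP2 were not analysed here.

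Libraries held 28037392 to 36829479 counts. Parental ETV4 stood at 19.7 CPM (counts relative to library size, with TMM factors) under the vehicle and 28.4 CPM under E2, and the 4 clone libraries read 2.41 to 3.42 CPM, as their labels say. The parental DMSO library had the lowest TMM factor, 0.899 against 1.00 to 1.05 elsewhere. All 7 epithelial markers and all 5 endometrial markers were above 1 CPM in every library. Of 10 fibroblast markers, COL1A1 and COL3A1 were above 1 CPM throughout, and 7 were below 1 CPM throughout, FAP among them at 0. Their summed level was 59.0 and 87.4 CPM in the parental line and 49.1 to 74.9 CPM in the clones. The 6 immune markers summed to at most 1.65 CPM, with CD3E and FCGR3A at 0, and the 5 endothelial markers to at most 4.60 CPM. In bulk RNA, fewer cells making a transcript and less transcript per cell cannot be told apart.

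Detection divided the group first. MMP2, a secreted gelatinase, had 0 counts in each of the 6 libraries, where a count of 0 allows up to 3 counts, or 0.0802 to 0.103 CPM. MMP7, the matrilysin with both motifs in its promoter, had 2 counts in parental DMSO, 1 in clone 1 DMSO and 0 elsewhere. Both genes were thus at or under that limit in every library and were not tested, and the other 8 passed the filter on low counts. Of all 24 MMP genes in the table, 12 never exceeded 3 counts, among them 5 at 0 throughout, and 8 were tested.

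The 8 measured genes spanned a wide range of levels. Per kilobase of exon (lengths from GENCODE 29, which need not match the annotation used for counting), TIMP2 was highest in parental DMSO at 41.1 CPM per kb. The level per kb was 18.5 for TIMP1, 12.6 for MMP14 and 8.23 for MMP15. It was 1.86 for MMP11, 1.06 for PLAU, 0.878 for MMP17 and 0.226 for TIMP3. TIMP2 was also highest and TIMP3 lowest in DMSO in both clones. The neighbours TIMP1 and MMP14 changed places between the clones, with 27.8 and 12.0 CPM per kb in clone 1 against 19.0 and 23.8 CPM per kb in clone 2, so their order did not hold beyond the spread between clones.

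**Figure D1:**
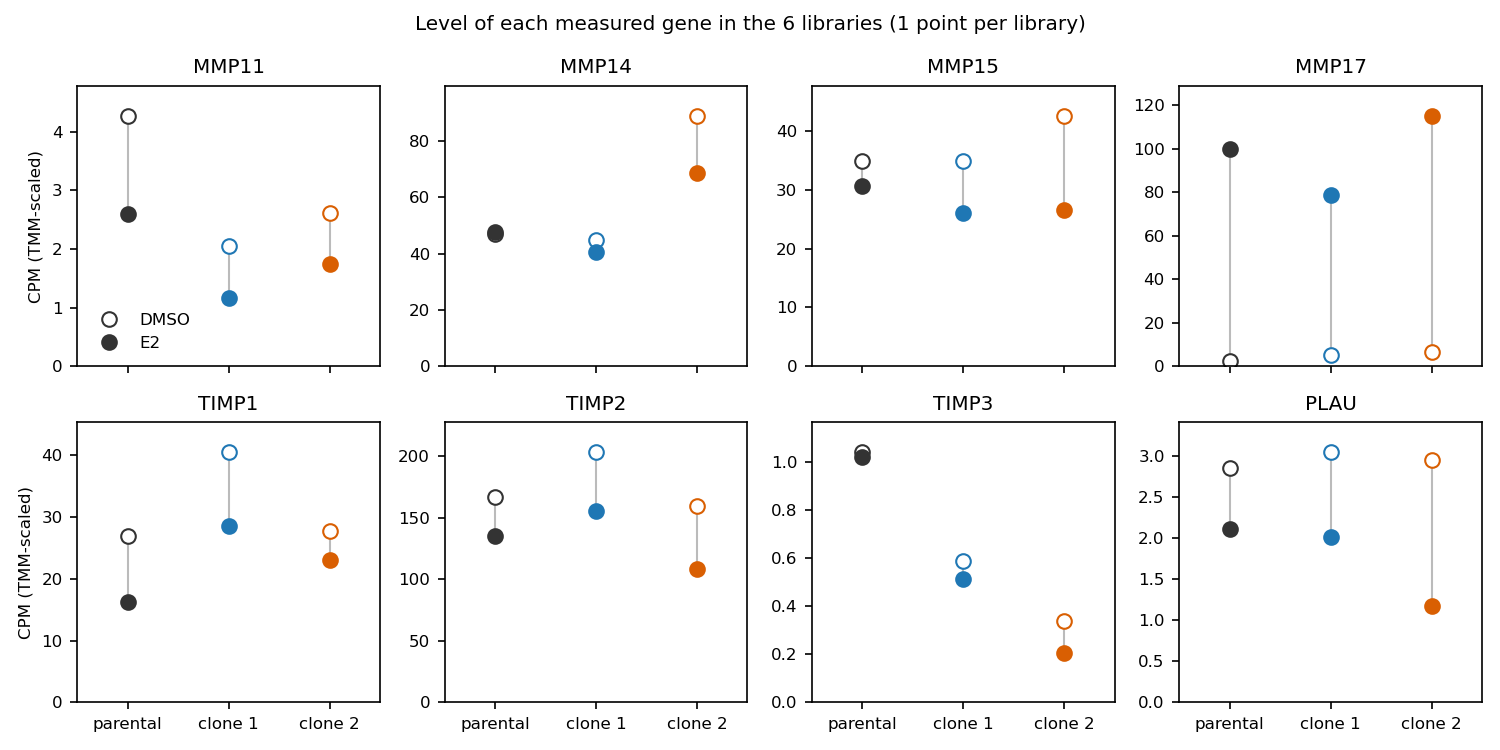
Level of each of the 8 measured genes in the 6 libraries, 1 point per library, in TMM-scaled CPM on a vertical axis from 0 that has its own range per gene; open points are DMSO, filled points E2, and columns are the 3 lines. MMP17 stands at 2.25 to 6.31 CPM in the DMSO libraries and at 78.9 to 115 CPM in the E2 libraries.

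E2 raised MMP17 in all 3 lines, and no other gene of the group passed the test. MMP17 had 67 counts in DMSO and 3748 in E2 in the parental line, 182 and 2306 in clone 1, and 186 and 3349 in clone 2. The levels were 2.25 and 100 CPM in the parental line, and in the clones 5.71 ± 0.857 CPM in DMSO and 96.8 ± 25.4 CPM in E2 (SD, n = 2). The groups did not overlap, since the lowest E2 library stood at 78.9 CPM and the highest DMSO library at 6.31 CPM. MMP15, TIMP2 and PLAU did not overlap between treatments either, with E2 lower. The share of all genes so separated was not counted, so these separations are descriptions only. Of all tested genes, 24.5% were lower in E2 in all 3 lines. Over the 6 libraries the MMP17 change was 4.50 on the log2 scale (SE 0.34, edgeR quasi-likelihood test, adjusted p = 0.00405), or 22.6-fold. MMP17 ranked 12 by size among the 141 genes that rose. It was the 1 gene called among the 8, where 1.13% of the 15611 tested genes were called. With the replicate block, where 2.46% of genes were called, MMP17 was again the 1 gene called of the 8.

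Within single lines MMP17 in E2 was 44.5 times its DMSO level in parental cells, 15.5 times in clone 1 and 18.2 times in clone 2. Their exact binomial 95% intervals, which cover counting error only, were 34.9 to 57.5, 13.3 to 18.1 and 15.7 to 21.2. Past 2-fold higher stood 11.3% of genes in parental cells, 3.87% in clone 1 and 3.95% in clone 2. MMP17 was the 1 gene of the 8 past 2-fold higher in each line. Past 2-fold lower, with 5.02%, 2.10% and 2.47% of genes in the same order, stood PLAU in clone 2 and none of the 8 in the parental line or clone 1.

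Among the membrane-bound enzymes of the group MMP17 went from the lowest to the highest level per kb. Of the summed level per kb of MMP14, MMP15 and MMP17, MMP17 made up 4.05% in parental DMSO and 66.1% in parental E2. The same share went from 8.95% to 64.4% in clone 1 and from 6.78% to 64.4% in clone 2. With the membrane-type genes MMP16, MMP24 and MMP25 added to the sum, the share went from 3.92% to 64.9% in the parental line, from 8.24% to 62.1% in clone 1 and from 6.51% to 62.9% in clone 2. The sum of MMP14, MMP15 and MMP17 alone went from 21.7 to 59.1 CPM per kb in the parental line. It went from 22.2 to 47.7 in clone 1 and from 36.3 to 69.5 in clone 2. Over the same libraries the summed level of the 3 TIMP genes went from 59.8 to 44.3, from 77.8 to 57.7 and from 58.1 to 42.3 CPM per kb. The sum of MMP14, MMP15 and MMP17 was below the TIMP sum in all DMSO libraries. In E2 it was above the TIMP sum in the parental line and clone 2 but not in clone 1. These sums are descriptions of transcript level, with no test.

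**Figure D2:**
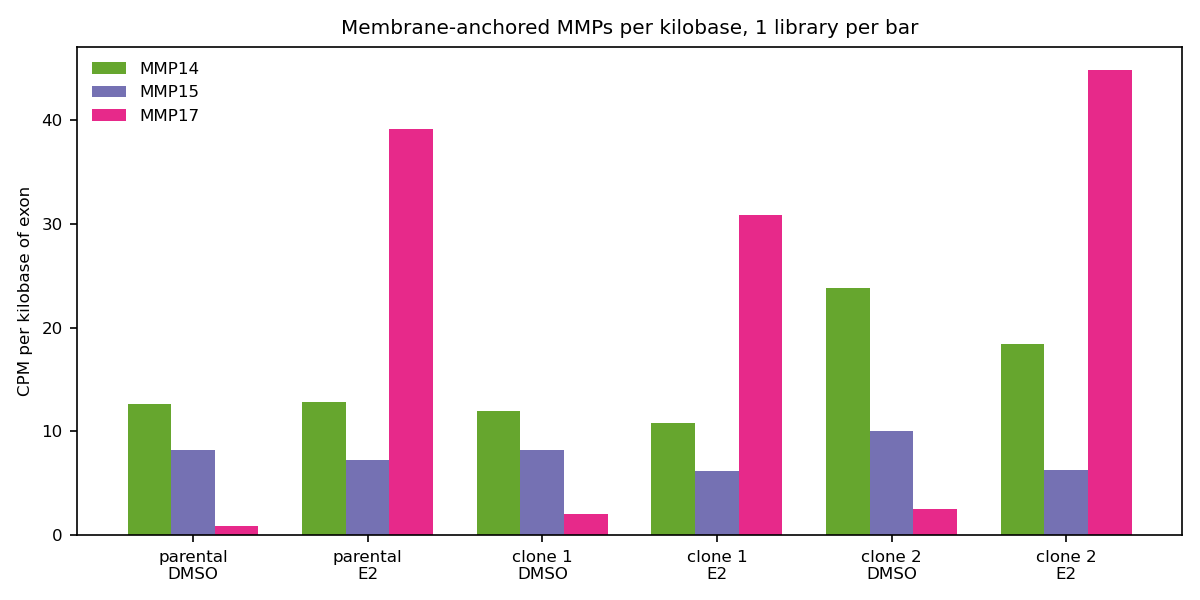
Level per kilobase of exon of the membrane-bound enzymes MMP14, MMP15 and MMP17, in TMM-scaled CPM per kb on a vertical axis from 0, with 1 bar per gene and library. The MMP17 bar is the lowest of the 3 in each DMSO library and the highest in each E2 library.

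Most other genes of the group were lower in E2 by small amounts that did not pass the test. With line as a replicate block and GC and length correction together, 4 of them passed as lower, where 4.21% of genes did: MMP15 (-0.67, edgeR adjusted p = 0.0110), TIMP2 (-0.47, 0.0274), TIMP1 (-0.39, 0.0391) and MMP11 (-0.86, 0.0456). MMP11, MMP15, TIMP1, TIMP2, TIMP3 and PLAU were lower in E2 in each of the 3 lines, 6 of 8 genes, where 24.5% of tested genes were lower in all 3. The median log2 difference of the 8 genes was -0.43, against -0.02 over all tested genes. At an unadjusted p under 0.05 stood 5 of the 8, against 20.4% of all genes in either direction. These were MMP17, which rose, and MMP11, MMP15, TIMP1 and PLAU, which were lower.

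MMP11, the secreted stromelysin-3 that is activated inside the cell by furin-type convertases, went from 4.27 to 2.59 CPM in the parental line, from 2.05 to 1.16 CPM in clone 1 and from 2.61 to 1.75 CPM in clone 2. Its E2 library was the lower one in each line, and the log2 difference was -0.69 (SE 0.26, edgeR adjusted p = 0.213). MMP15, a transmembrane enzyme, went from 35.0 to 30.6 CPM in the parental line, from 34.9 to 26.1 CPM in clone 1 and from 42.6 to 26.6 CPM in clone 2. No E2 value of MMP15 reached a DMSO value, and the log2 difference was -0.44 (SE 0.14, edgeR adjusted p = 0.184). With each library corrected for GC content and length it was -0.67 (adjusted p = 0.0192), which passed, where 0.833% of genes were called lower. MMP14, the main transmembrane activator of the MMP2 proenzyme, read 46.9 and 47.8 CPM in the parental line, 44.9 and 40.5 CPM in clone 1 and 88.9 and 68.8 CPM in clone 2, in DMSO and E2. Its spread lay between the clones rather than between treatments, with a log2 difference of -0.19 (SE 0.30, edgeR adjusted p = 0.727).

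None of the 3 inhibitors passed the test over the 6 libraries. TIMP1 went from 27.0 to 16.2 CPM in the parental line, from 40.5 to 28.6 CPM in clone 1 and from 27.8 to 23.1 CPM in clone 2. DMSO and E2 values of TIMP1 overlapped across lines, and its log2 difference was -0.52 (SE 0.19, edgeR adjusted p = 0.206). Without clone 2 it was -0.61 and passed (edgeR adjusted p = 0.00920), in a fit that called 3353 of 15548 tested genes. That fit has 1 residual degree of freedom and a spread that edgeR took as shared by all genes. TIMP2, the most abundant of the group per kb in DMSO, went from 167 to 135 CPM in the parental line, from 203 to 155 CPM in clone 1 and from 159 to 108 CPM in clone 2. Its highest E2 value lay just under its lowest DMSO value, and the log2 difference was -0.41 (SE 0.18, edgeR adjusted p = 0.254). TIMP3, a TIMP that binds the matrix, had 31 and 38 counts in the parental line, 21 and 15 in clone 1 and 10 and 6 in clone 2, in DMSO and E2. As levels these were 1.04 and 1.02 CPM, 0.589 and 0.513 CPM, and 0.339 and 0.206 CPM, and the counting interval of each ratio held 1. Its log2 difference was -0.24 (SE 0.44, edgeR adjusted p = 0.766).

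PLAU went from 2.86 to 2.11 CPM in the parental line, from 3.05 to 2.02 CPM in clone 1 and from 2.95 to 1.17 CPM in clone 2. The DMSO libraries lay close together and all E2 libraries lay below them, but counts were low, 34 to 109 per library. The log2 difference was -0.75 (SE 0.29, edgeR adjusted p = 0.218). In clone 2 the E2 level was 39.5% of that in DMSO, a ratio of 0.395 with a counting interval of 0.257 to 0.593. In GENCODE 29 the exons of PLAU share 771 bases with C10orf55 on the opposite strand, and those of TIMP2 share 367 bases with AC022966.1. The use of strand in counting is not given in the sources used here, so reads of these pairs may not be separated.

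**Figure D3:**
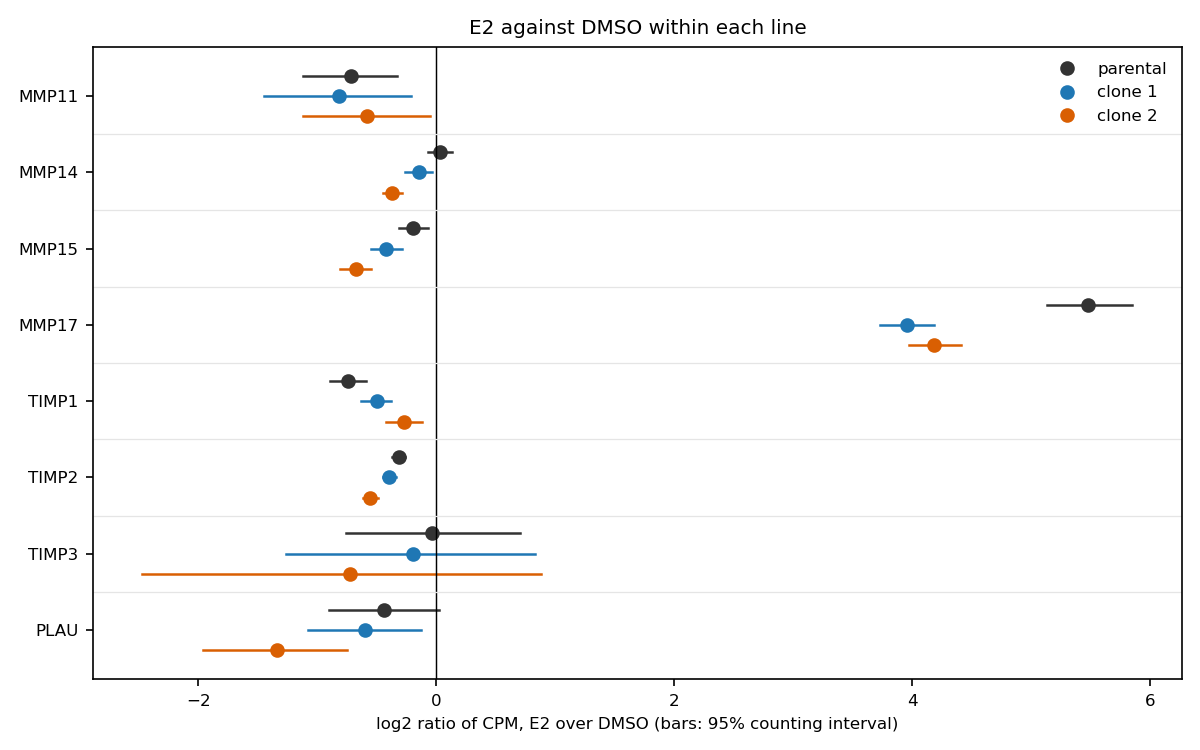
Ratio of the CPM in E2 to that in DMSO for the 8 measured genes in each line, on a log2 horizontal axis, with 1 point per line and bars for the 95% counting interval. MMP17 lies far right at ratios of 44.5, 15.5 and 18.2 in the parental line, clone 1 and clone 2, and 6 genes lie below 0 in all 3 lines.

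The clones alone gave the same single call. In their 4 libraries MMP17 rose by 4.07 on the log2 scale (SE 0.25, edgeR adjusted p = 0.00785), and it was the 1 gene called of 8, where 0.329% of 14881 tested genes were called. Without the clone 1 DMSO library the change was 3.91. That fit leaves 1 DMSO library, whose spread is assumed to be like that of the E2 libraries, so no call is read from it. The libraries of 1 clone are a pair, and with line as a replicate block 5 of the 8 genes were called. MMP17 rose by 4.06 (edgeR adjusted p = 9.54e-145), where 8.54% of genes were called higher. PLAU fell by 0.94 on the log2 scale (adjusted p = 0.00261), MMP15 fell by 0.56 (3.16e-04), TIMP2 fell by 0.49 (0.00955) and TIMP1 fell by 0.40 (0.0180), where 6.42% of genes were called lower. MMP11 at -0.70 (adjusted p = 0.0560), MMP14 at -0.27 (0.156) and TIMP3 at -0.38 (0.703) did not pass. With GC and length correction in the same paired fit MMP11 (-0.72, 0.0454) and MMP14 (-0.28, 0.0235) passed too, where 9.63% of genes were called lower. Both paired fits have 1 residual degree of freedom. Without the correction edgeR took the spread as shared by all genes, and with the correction as largely but not fully shared.

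Whether the E2 response differed between the clones and the parental line was tested as an interaction. For MMP17 the log2 change was lower in the clones by 1.39 in size (-1.39, SE 0.41, unadjusted p = 0.0140), and it did not pass adjustment in edgeR (adjusted p = 0.617). None of the 8 genes was called, and the background was 0% of genes. At an unadjusted p under 0.05 stood 1 of the 8, against 7.62% of all genes. Limma-voom called 0 genes, and DESeq2 called 29, but DESeq2 gave an adjusted p for TIMP2 alone among the 8 (0.861), so the other 7, MMP17 with an unadjusted p of 0.00252 among them, could not be called there. With the replicate block the MMP17 value was -1.41 (SE 0.28, edgeR adjusted p = 5.76e-05) and passed, where 15.8% of genes were called. With GC and length correction in the block it was -1.17 (adjusted p = 4.58e-04). Both paired fits have 1 residual degree of freedom and 1 parental pair. Without the correction the spread was taken as shared by all genes, and with the correction as largely but not fully shared. The other 7 genes did not pass with the block. Without it their log2 differences in response were -0.48 for PLAU, -0.37 for MMP15, -0.34 for TIMP3, -0.32 for MMP14, -0.15 for TIMP2, 0.04 for MMP11 and 0.33 for TIMP1, with edgeR adjusted p from 0.683 to 0.988.

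The levels behind the MMP17 difference lay in DMSO more than in E2. In DMSO, clone 1 stood at 2.26 times and clone 2 at 2.80 times the parental level (counting intervals 1.70 to 3.04 and 2.11 to 3.76). In E2 the ratios were 0.788 and 1.15, on either side of the parental level. The comparison rests on a single parental DMSO library with 67 MMP17 counts, which also had the lowest TMM factor. Its part in the result was not tested.

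**Figure D4:**
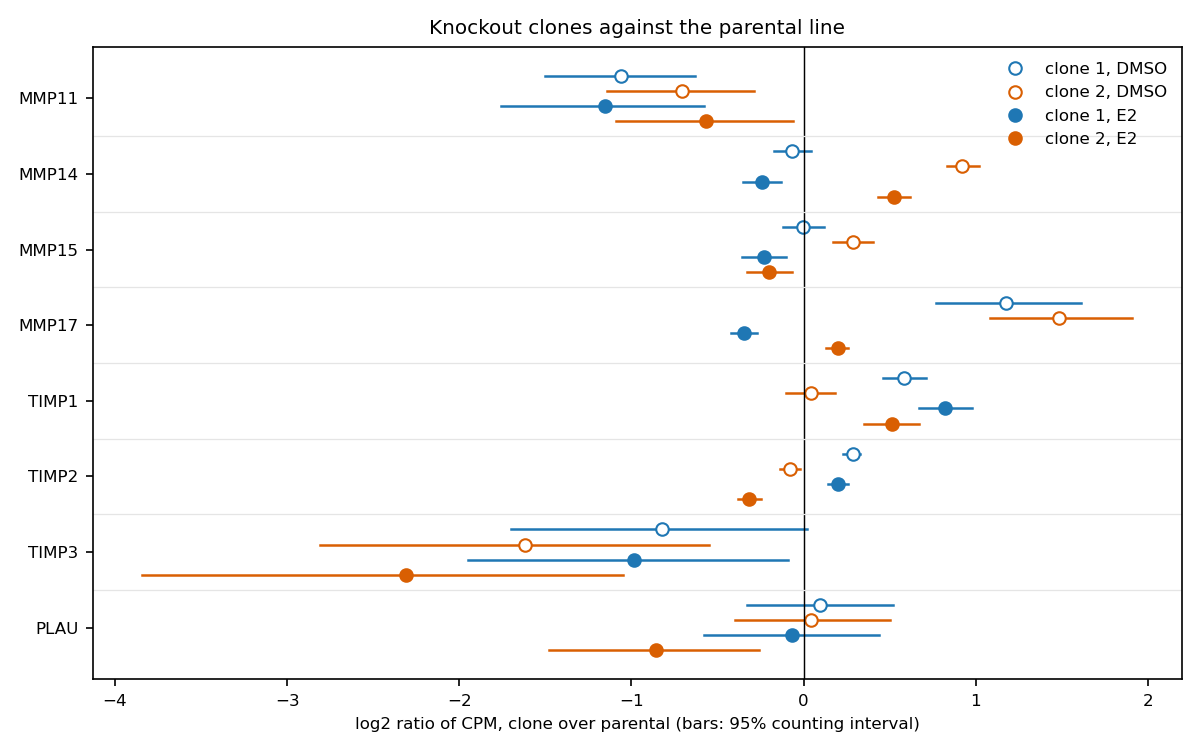
Ratio of the CPM in each clone to that in the parental line under the same treatment for the 8 measured genes, on a log2 horizontal axis, with bars for the 95% counting interval; open points are DMSO and filled points E2. MMP11 and TIMP3 lie below 0 and TIMP1 above 0 in all 4 ratios, while MMP14 lies above 0 for clone 2 and below 0 for clone 1.

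Loss of ETV4 was not accompanied by a called change in any gene of the group. None of the 8 was called in the knockout comparison of the 4 clone with the 2 parental libraries, where 0.327% of genes were called. DESeq2, limma-voom and the replicate block (0.295% of genes called) also called 0 of the 8. In this comparison alone the block was fitted in limma-voom, as a correlation of 0.113 between libraries of 1 line, so it is close to the limma-voom fit. At an unadjusted p under 0.05 stood 3 of the 8, against 11.4% of all genes. The fit treats libraries of 1 line as independent, and, with 1 parental line, the effect of the knockout and other differences between clones and parental cells cannot be told apart.

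The 3 genes at an unadjusted p under 0.05 were MMP11, TIMP3 and TIMP1. MMP11 read 4.27 and 2.59 CPM in the parental line, against clone means of 2.33 ± 0.401 CPM with DMSO and 1.46 ± 0.414 CPM with E2 (SD, n = 2). It was lower than the parental line in all 4 pairs of libraries, with a log2 difference of -0.85 (SE 0.26, edgeR adjusted p = 0.317). Without clone 2 it was -1.11 and passed (edgeR adjusted p = 0.0126), in a fit that called 996 of 15548 tested genes. TIMP3 read 1.04 and 1.02 CPM in the parental line and 0.206 to 0.589 CPM in the clones, lower in all 4 pairs, with a log2 difference of -1.32 (SE 0.44, edgeR adjusted p = 0.355). Without clone 1 it was -1.93 and passed (edgeR adjusted p = 0.0333), in a fit that called 631 of 15427 tested genes. TIMP1 was higher in all 4 pairs, at 27.0 and 16.2 CPM in the parental line against clone means of 34.2 ± 9.00 CPM with DMSO and 25.8 ± 3.91 CPM with E2 (SD, n = 2). Its log2 difference was 0.50 (SE 0.20, edgeR adjusted p = 0.416), and without clone 2 it was 0.70 and passed (adjusted p = 0.00500). Each fit without a clone has 1 residual degree of freedom and a spread that edgeR took as shared by all genes. Of all tested genes, 16.0% were lower and 18.1% higher in all 4 pairs.

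The other 5 genes gave smaller or less even differences. The log2 difference was 0.49 for MMP17 (edgeR adjusted p = 0.544), 0.35 for MMP14 (0.635) and -0.17 for PLAU (0.811). It was -0.04 for MMP15 (0.926) and 0.04 for TIMP2 (0.937). PLAU in DMSO read 2.86 CPM in the parental line, 3.05 CPM in clone 1 and 2.95 CPM in clone 2.

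Between the clones, MMP14 had the smallest p of the group. It stood at 44.9 and 40.5 CPM in clone 1 and 88.9 and 68.8 CPM in clone 2, in DMSO and E2, while the parental line lay near clone 1 at 46.9 and 47.8 CPM. The log2 difference, clone 1 minus clone 2, was -0.88 (SE 0.16, edgeR adjusted p = 0.0862) and did not pass, and none of the 8 genes was called where 0.871% of genes were. It passed with DESeq2 (-0.89, adjusted p = 0.00334), where 369 of 15611 tested genes were called. Without the filter on low counts it passed (edgeR adjusted p = 0.0475), where 236 of 20597 were called. With GC and length correction it passed too (-0.75, edgeR adjusted p = 0.0212), where 327 of 15611 were called. Without the clone 2 E2 library, which leaves 1 library of clone 2, it was -1.04. The next smallest adjusted p values were 0.329 for TIMP2 (0.43) and 0.381 for TIMP1 (0.42), both with higher values in clone 1. The log2 difference was 1.00 for TIMP3 (adjusted p = 0.427), -0.46 for MMP11 (0.487), -0.43 for MMP17 (0.624), 0.36 for PLAU (0.637) and -0.17 for MMP15 (0.685).

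A wider set of 90 genes of matrix turnover and its regulators, without the 10 genes above, was counted in the same fits. In the knockout comparison 0 of 69 tested genes were higher and 2 lower, where 0.327% of all genes were called; these were ETV4 itself and SPARC, a matrix glycoprotein. SPARC read 2.99 and 1.82 CPM in the parental line and 0.171 to 0.407 CPM in the clones (log2 -2.86, SE 0.36, edgeR adjusted p = 0.0404). The 7 AP-1 genes had no call in that comparison. In the E2 comparison 2 of the 69 rose and 1 fell, where 1.13% of all genes were called. THBS1, a matricellular protein that binds proteases, went from 22.4 to 572 CPM in the parental line, from 21.2 to 215 CPM in clone 1 and from 26.6 to 513 CPM in clone 2 (log2 4.17, SE 0.38, edgeR adjusted p = 0.00721). VCAN, a matrix proteoglycan, rose by 2.55 (adjusted p = 0.0494), which did not pass with median-ratio scaling (0.0517), with GC and length correction (0.0506) or without the parental line (0.134).

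JUNB, an AP-1 subunit, was the 1 gene of the set that fell in E2. It went from 61.0 to 31.3 CPM in the parental line, from 52.8 to 32.8 CPM in clone 1 and from 66.7 to 32.2 CPM in clone 2 (log2 -0.91, SE 0.13, edgeR adjusted p = 0.0307), and without the parental line it did not pass (0.164). None of the 4 proprotein convertase genes was called. With the replicate block 4 genes rose and 2 fell, where 2.46% of all genes were called, and the added genes were PLAT, ADAMTS9 and ITGB3. PLAT, the other plasminogen activator, went from 7.50 to 35.2 CPM in the parental line, from 8.41 to 41.4 CPM in clone 1 and from 21.3 to 90.4 CPM in clone 2. Its log2 change was 2.17 (edgeR adjusted p = 0.0766), or 2.20 with the block (0.00229), beside -0.75 for PLAU.

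In the clones alone THBS1 was the 1 gene of the wider set called (log2 3.91, edgeR adjusted p = 0.0365). It did not pass with GC and length correction (0.0575). Its change was 3.74 without the clone 1 DMSO library and 4.10 without the clone 2 DMSO library. Each of those fits leaves 1 DMSO library, so no call is read from them. With the block 6 of 67 rose and 12 fell, beside 8.54% and 6.42% of all genes. In the interaction none was called, and with the block 1 of 69 was higher and 14 lower, beside 8.90% and 6.92% of all genes. Of the 18 matrix substrate genes 8 were lower there, led by LAMA5 (log2 -1.21, edgeR adjusted p = 3.37e-04). With GC and length correction in the block LAMA5 was -0.45 (adjusted p = 0.110), and 6 of those 8 genes no longer passed, HSPG2 for one moving from -0.93 to -0.16 (0.647). LAMB3 at -0.58 (0.0231) and TNC at -0.53 (0.0488) passed in both fits, and with the correction 3.82% of all genes were called lower. VCAN passed in the other direction with the correction at 1.26 (0.0453), where 877 of 15611 tested genes were called higher. Between the clones 2 of the 69 were higher in clone 1 and 1 lower, where 0.871% of all genes were called. MMP16, a membrane-type enzyme, was higher in clone 1 by 2.33 (edgeR adjusted p = 0.0110), at 6.33 and 6.43 CPM against 1.29 and 1.23 CPM in clone 2. The others were ADAMTS9 (2.34, edgeR adjusted p = 0.0390) and PLAT (-1.23, 0.0219). Neither of these calls held in every fit that left out 1 library.

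**Figure D5:**
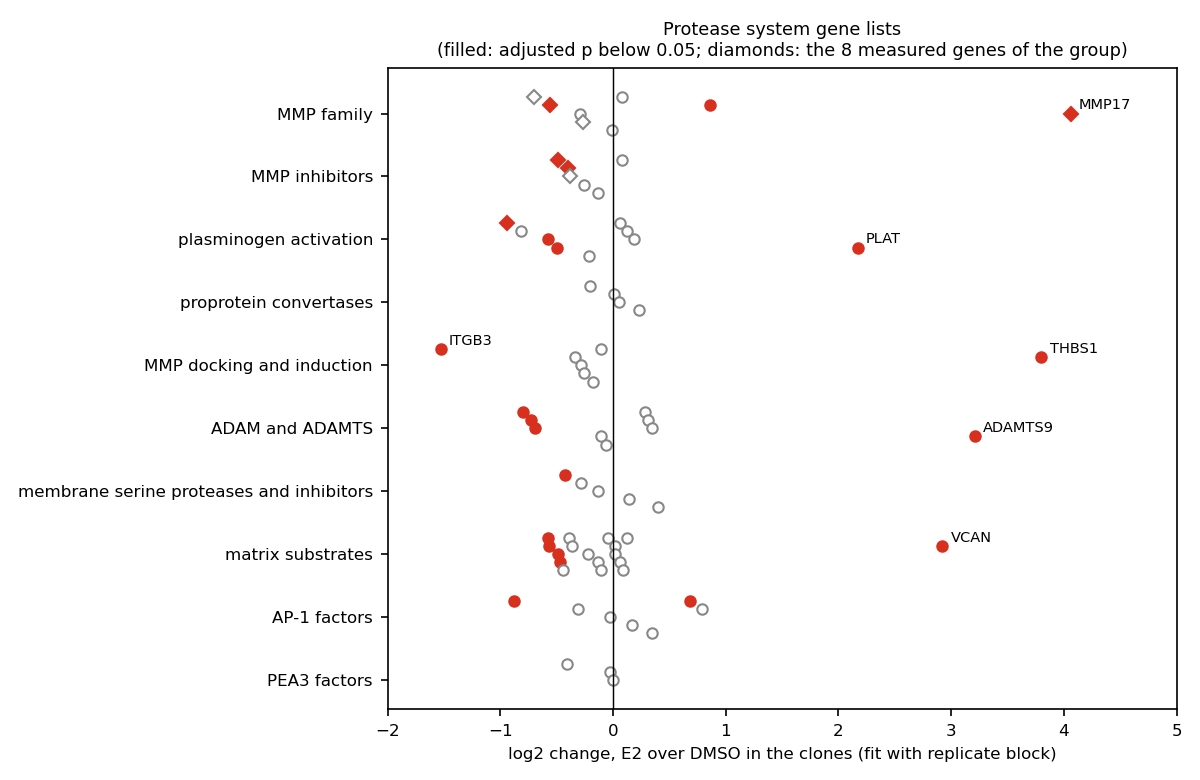
Log2 change of E2 over DMSO in the 4 clone libraries, fitted with the replicate block (horizontal axis), for each gene of the wider lists (circles, 1 row per list) and the 8 measured genes (diamonds); filled points have an adjusted p below 0.05. MMP17 at 4.06 and THBS1 at 3.80 lie farthest right, followed by ADAMTS9 at 3.21, VCAN at 2.92 and PLAT at 2.17, and ITGB3 at -1.53 lies farthest left.

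Genes of most similar pattern were sought by Pearson's r of log2 CPM over the 6 libraries among 12365 genes, as a description. For MMP17 they were HR (r = 0.999), SLC7A5 (0.997) and LOC101928979 (0.996), and 214 genes exceeded 0.95. For MMP11 they were MED29 (0.998), FCGRT (0.994) and KCTD17 (0.993), and for MMP14 SCRN1 (0.993), SIPA1 (0.992) and PELI3 (0.992). For TIMP1 they were MRAS (0.994), PPARGC1A (0.992) and RAB27A (0.991), and for PLAU UNC5C (0.994), COPA (0.986) and ZFP36L1 (0.979). The 6 points share lines and treatments.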

How the data were processed

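Poly(A) RNA-seq was deposited for 6 libraries of 3 lines. The authors deposited a table of raw counts per gene and a table of normalized signal. Per the submitters' processing notes HISAT2, SAMtools, Subread, DESeq2 and the hg19 build were used; versions, annotation and strand setting are not given in the sources used here. The deposited signal equalled the count divided by a recomputed median-ratio size factor (0.926 to 1.19) to within a relative 4.90e-15. It entered no fit, and median-ratio scaling was applied to the raw counts as an alternative.

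Counts were tested in R 4.3.3 with edgeR 4.0.16 (quasi-likelihood, TMM, filterByExpr on the 4 groups, Benjamini-Hochberg adjustment over all 15611 tested genes, or 14881 in the clones, threshold 0.05). The standard error is the log2 change over the square root of F. Knockout and E2 effects came from 1 additive model, the interaction from a model with that term, and the clones were compared with line and treatment in the model. Ratios of single libraries and their counting intervals used no prior count. Log2 values of single libraries had a prior count of 2. They served for counts past 2-fold or by direction, for correlations and for the flagged MMP14 log2 ratios. The tests were tried on simulated counts, drawn independently for each library with a fixed spread and no pairing by line. That setting is simpler than these data. The p-values measure only the spread between these libraries, which may be technical in part. Libraries of 1 line are paired; the difference between clones correlated at 0.626 between treatments over the tested genes.

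Other settings tried were scaling by median ratio, no filter, DESeq2 1.42.0, limma-voom (limma 3.58.1), GC and length correction (GENCODE 29 values for 93.6% of tested genes and all 10 genes described), the replicate block, both together, and leaving out lines or libraries. All 8 tested genes are given in each comparison, MMP2 and MMP7 by their counts, and ETV4 by its level as the check of the knockout. From the wider lists, genes with an adjusted p below 0.05 were eligible, up to 8 by smallest p, or up to 8 called with the block where none of a list was called without it; of these only some are printed. Similar genes are the 3 of highest r for each gene with a mean of at least 2 CPM and a 2-fold range. The genes and lists were chosen with earlier results of these data known.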

Additional observations from a re-analysis of the deposited data

Results flagged for a closer look

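The MMP17 response to E2 was smaller in the clones than in parental cells by the interaction term with the replicate block, at -1.41 on the log2 scale (SE 0.28, edgeR adjusted p = 5.76e-05); without the block the adjusted p was 0.617. The paired fit has 1 residual degree of freedom and 1 parental pair, its spread is shared by all genes, and 15.8% of genes were called in it.

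The MMP14 log2 ratio of E2 to DMSO was 0.03 in the parental line and -0.15 and -0.37 in the clones, opposite in sign. The parental ratio of 1.02 had a counting interval of 0.949 to 1.09, which held 1, so its sign is not settled. The interaction for MMP14 was -0.32 (SE 0.65, edgeR adjusted p = 0.885), or -0.29 with the replicate block (adjusted p = 0.411), and did not pass.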

How the results depend on the processing

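Of single-gene changes under alternatives, 622 kept direction and side of the threshold, 97 newly passed, 11 no longer passed and 15 changed sign; of single-library ratios 347 moved by less than their interval, 12 by more and 1 changed sign. With DESeq2 the genes called numbered 454 in the knockout comparison, 1115 for E2, 310 in the clones, 29 for the interaction and 369 between clones. GC and length correction gave 118, 382 and 327 for the knockout, E2 and clone-to-clone comparisons, and no filter gave 236 between clones. The replicate block gave 384 for E2, 2227 in the clones and 2470 for the interaction, and with GC correction 1538, 3103 and 1474. Genes of the group called were 2 for E2 with GC correction and 5 with the block added, 5 and 7 in the clones with the block and with both, 1 for the interaction with either, and 1 between clones with no filter, DESeq2 or GC correction. The replicate block changed no call of the group in the knockout or E2 comparison. Leaving out a line or library gave 1 to 2 of the group and 631 to 996 genes for the knockout, 1 to 2 and 49 to 3353 for E2, 0 to 1 and 0 to 352 in the clones, and 0 to 1 and 174 to 915 between clones. The interaction without a clone could not be fitted, as no residual degrees of freedom were left. Signs changed for MMP14 in the knockout comparison without clone 2 (range -0.15 to 0.71 over the clones left out) and in the clones without clone 1 E2 (0.02) or clone 2 DMSO (range -0.73 to 0.29). They changed for MMP15 in the knockout comparison without clone 1 (range -0.12 to 0.03), in the interaction with GC correction, with or without the block (0.11), and between clones with GC correction (0.05) or without clone 2 DMSO (range -0.36 to 0.04). They changed for TIMP2 in the knockout comparison without clone 1 (range -0.21 to 0.24) and in the clone 2 to parental DMSO ratio by total counts (0.15). They changed for TIMP3 in the clones without clone 1 DMSO (0.06) or clone 2 E2 (range -1.19 to 0.13), for TNC likewise (0.14 without clone 2 E2, range -1.24 to 0.16), and for PLAU in the knockout comparison without clone 2 (range -0.39 to 0.02) and between clones without clone 2 E2 (range -1.46e-03 to 0.84). The cause of these changes was not tested. TIMP3, PLAU and MMP11 had the lowest counts, and the part of depth in their results was not tested.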
